A study of Mus musculus with 14 samples.

Results

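The Dlx and Msx homeobox genes described here are Dlx1, Dlx2, Dlx3, Dlx4, Dlx5, Dlx6, Msx1 and Msx2, chosen by symbol from lists of chromatin regions that differed in accessibility between groups of mouse embryos. All 8 had a line in at least 1 list, among 6687 genes with a line in all, and 28 of the 10679 lines belonged to them. The assay was ATAC-seq, which marks open DNA by inserting sequencing adapters there with a transposase. The cells were erythro-myeloid progenitors, yolk sac precursors of red cells and myeloid cells, sorted from C57BL/6 embryos at E10.5.

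Every embryo carried floxed Ezh2 alleles (Ezh2fl/fl), and the groups differed by the Cre transgene. The 5 Tie2 KO samples (Tie2-CreTg/+) delete Ezh2 in endothelium and in the blood cells that arise from it. The 3 Vav KO samples (Vav-CreTg/+) delete it in blood cells. The 3 Tie2 WT samples (Tie2-Cre+/+) are labelled wild type and served as control for both knockouts, and where Vav KO is set against it, the mouse line cannot be told apart from the deletion. The 3 Vav WT samples (Vav-Cre+/+) are named in no list. The labels do not say whether a library comes from 1 embryo or several.

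Dlx and Msx genes encode homeodomain transcription factors of the NK-like class. In mouse embryos they pattern the branchial arches, teeth, limbs, skin and, for several Dlx genes, the GABA-producing neurons of the forebrain. The 6 Dlx genes lie in 3 pairs whose members face each other tail to tail, so that the gene starts are at the outer ends and shared enhancers lie between them. In most embryonic cells outside their domains these genes are held silent by Polycomb complexes. Ezh2 is the subunit of Polycomb repressive complex 2 that methylates histone H3 at lysine 27.

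The lists give 1 line for each pairing of a region with a gene, with the authors' log2 fold change and adjusted p-value, and coordinates in mm10. They hold no value per sample, so neither the spread between samples nor the depth can be given, and a region's error is known only through that adjusted p-value. Only regions that cover a gene start or lie within 5 kb of one are listed, nearly all of them on the upstream side. A region without a line was not called or not kept, which does not show that it was unchanged. In libraries of pooled cells, more cells with open chromatin and more opening per cell cannot be told apart. The lists hold differences and no levels, so the labelled cell type could not be checked by marker levels. Ezh2 had no line in any list, so its deletion could not be checked here. Regions over Tek, the gene also called Tie2, were higher in Tie2 KO than Tie2 WT and than Vav KO, with log2 fold changes of 2.90 and 2.92 per the authors' deposited table. They were 12899 and 12299 bp wide, each the widest of its list. A region over Vav1 was higher in Vav KO than Tie2 WT at 0.81, and one was lower in Tie2 KO than Vav KO at -0.9, per the authors' deposited table. The groups compared differ in the Cre transgene they carry, and the part of the transgenes in these values was not tested.

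Setting Tie2 KO against Tie2 WT addresses how chromatin at these genes differs when Ezh2 is deleted with the endothelial driver. All 8 Dlx and Msx genes had a higher region in Tie2 KO and 0 had a lower one. Among the 21900 protein-coding genes of the reference table, 11.5% had a higher region and 2.51% a lower one. The members had 14 higher regions, with log2 fold changes from 0.72 to 1.6 per the authors' deposited table, that is 1.65-fold to 3.03-fold. Of the 8 genes, 5 had a region over the gene start (Dlx3, Dlx5, Dlx6, Msx1 and Msx2), against 7.11% of protein-coding genes. Counted by region, 5 of the 14 covered a start, against 55.6% of all higher regions, so member regions did not favour starts. Likewise 5 genes (Dlx4, Dlx5, Dlx6, Msx1 and Msx2) had 2 or more higher regions, against 1.18% of protein-coding genes.

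The rises of the Dlx and Msx genes were close in size to the middle of the list. Their median log2 fold change was 1.08, against 1.02 over all 2959 higher regions, and 8 of the 14 lay above that median, per the authors' deposited table. The largest adjusted p of the 14 was 0.00989 per the authors' deposited table. At an adjusted p of 0.01 or lower, all 8 genes keep a region, against 11.5% of protein-coding genes, and at a log2 fold change of 1 or more 6 do, against 6.21%. The regions were from 999 to 2699 bp wide, with a median of 1899 bp, against 1599 bp over all higher regions.

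**Figure D1:**
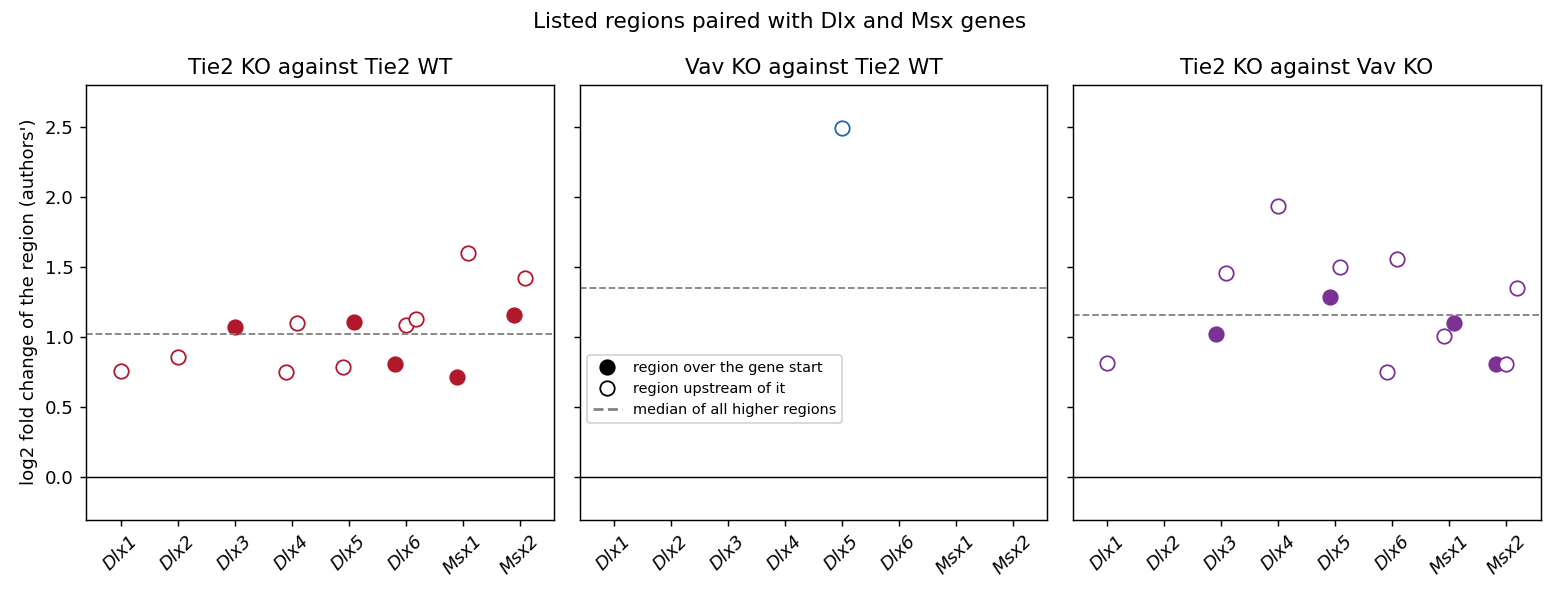
Each point is 1 listed region paired with the gene on the horizontal axis, at its log2 fold change on the vertical axis, filled where the region covers the gene start, with 1 panel per comparison and the median of all higher regions dashed. All 8 genes have points between 0.72 and 1.6 in Tie2 KO against Tie2 WT, Dlx5 alone has a point, at 2.49, in Vav KO against Tie2 WT, and Dlx2 has no point in Tie2 KO against Vav KO.

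Dlx1 and Dlx2 are needed for the migration and differentiation of forebrain interneurons. They lie 9.4 kb apart on chromosome 2. Dlx1 had 1 region higher in Tie2 KO than Tie2 WT, from 71527502 to 71528800, at a log2 fold change of 0.76 with an adjusted p of 0.00989 per the authors' deposited table. It ended 644 bp short of the Dlx1 start used in the lists, at 71529445. In the RefSeq table Dlx1 begins at 71528113, which is inside the region. Dlx2 had 1 region, from 71551202 to 71552300 and 4447 bp upstream of its start, at 0.86 with an adjusted p of 0.000585 per the authors' deposited table. So both regions lay outside the pair and the listed starts of both genes were uncovered.

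The widest region at any Dlx or Msx locus lay between Dlx1 and Dlx2. It ran from 71536902 to 71542400, 5499 bp, and was wider than 99.2% of the higher regions. Its log2 fold change was 1.19 with an adjusted p of 1.02e-07 per the authors' deposited table. The lists pair it with Dlx1as, a noncoding RNA gene on the strand opposite to Dlx1, whose start it covers.

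The RefSeq promoters of Dlx1 and Dlx2 (GRCm38.p6, from 250 bases before to 50 bases after the start) are printed because they sit on the gene starts used in the lists, which no listed region touched. For Dlx1 this is the inner start, at 71529445, and the outer one of the RefSeq table, at 71528113, lies in the region higher in Tie2 KO, as given above. The Dlx1 promoter is chr2:71529195-71529494 on the + strand and the Dlx2 promoter is chr2:71546705-71547004 on the - strand. Capitals mark a CCAAT box, the site bound by the factor NF-Y, on either strand (ATTGG on the other), and TAATTA, the core bound by many homeodomains, which reads the same on both strands.
Dlx1: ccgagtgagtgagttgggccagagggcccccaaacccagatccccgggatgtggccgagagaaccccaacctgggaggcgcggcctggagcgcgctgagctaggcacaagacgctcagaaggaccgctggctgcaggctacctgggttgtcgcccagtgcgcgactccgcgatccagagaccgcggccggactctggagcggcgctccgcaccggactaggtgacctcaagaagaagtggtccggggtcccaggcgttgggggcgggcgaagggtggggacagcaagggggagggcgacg
Dlx2: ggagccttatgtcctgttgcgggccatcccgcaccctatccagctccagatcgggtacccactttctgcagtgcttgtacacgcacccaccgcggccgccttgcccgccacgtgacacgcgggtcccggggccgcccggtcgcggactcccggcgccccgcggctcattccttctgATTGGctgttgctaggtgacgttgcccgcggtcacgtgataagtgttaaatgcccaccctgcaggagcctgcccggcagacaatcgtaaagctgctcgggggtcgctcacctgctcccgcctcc
The Dlx2 promoter holds 1 CCAAT box and the promoter at the inner Dlx1 start none, and neither holds TAATTA. Over all 32851 promoters of the table, 37.4% hold a CCAAT box and 5.29% hold TAATTA. Both promoters are rich in CpG, with 27 CpG in Dlx1 and 29 in Dlx2 against a median of 7 over all promoters.

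Dlx3 and Dlx4 lie 15.2 kb apart on chromosome 11. Dlx3 acts in skin, hair, teeth and placenta. Its region from 95119302 to 95121500 covered the gene start and was higher in Tie2 KO than Tie2 WT, at a log2 fold change of 1.07 with an adjusted p of 1.3e-06 per the authors' deposited table. Dlx4 had 2 regions upstream of its start and none over it. The nearer, from 95146302 to 95147300, lay 500 bp upstream at 0.75, and the farther, from 95148902 to 95151600, lay 3100 bp upstream at 1.10, both per the authors' deposited table. Their adjusted p-values were 0.000706 and 2.34e-06 per the authors' deposited table. In the RefSeq table Dlx4 begins at 95146294, next to the nearer region and still outside it. A region inside the Dlx4 gene, from 95141102 to 95143900, was paired with Dlx4os, a noncoding gene on the other strand, and rose by 1.35 on the log2 scale per the authors' deposited table. No region was listed in the interval between Dlx3 and Dlx4.

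Dlx5 and Dlx6, regulators of the lower jaw, bone and forebrain neurons, lie 9.8 kb apart on chromosome 6. Their starts were both covered by regions higher in Tie2 KO than Tie2 WT. At Dlx5 the region from 6880502 to 6882700 had a log2 fold change of 1.11 with an adjusted p of 7.69e-06 per the authors' deposited table. A narrower one 2333 bp upstream, from 6884402 to 6885400, had 0.79 with an adjusted p of 0.00061 per the authors' deposited table. Dlx6 had 3 regions, more than any other member in this comparison. The one over its start, from 6862802 to 6865300, had 0.81, the one 833 bp upstream 1.13, and the one 4533 bp upstream 1.09, per the authors' deposited table. Their adjusted p-values were 1.68e-05, 6.08e-07 and 0.000757 per the authors' deposited table. The first of these also covers the whole of Dlx6os2, a short noncoding gene on the other strand.

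Set side by side with 20 kb on either end, the Dlx pairs had 3 regions (Dlx1 and Dlx2), 4 (Dlx3 and Dlx4) and 5 (Dlx5 and Dlx6) higher in Tie2 KO than Tie2 WT, and 0 lower. The covered lengths were closer to each other, at 7.9, 8.7 and 8.6 kb in the same order, or 13.8%, 13.2% and 14.6% of each locus. What differed was where the regions lay. At Dlx1 and Dlx2 most of the covered length was in the interval between the genes, with 5499 bp there and 2398 bp outside the genes. At Dlx3 and Dlx4, 0 regions lay wholly between the genes, 1 lay over a start, 1 in the body of Dlx4 and 2 outside. At Dlx5 and Dlx6, 2 regions lay over starts with 4698 bp and 3 lay outside with 3897 bp. Regions between genes are listed only if they fall near the start of a gene such as Dlx1as, so these counts also depend on which noncoding genes are annotated there. They depend on the gene starts used as well. The region upstream of Dlx1, counted here as outside, covers the RefSeq start of Dlx1 at 71528113.

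**Figure D2:**
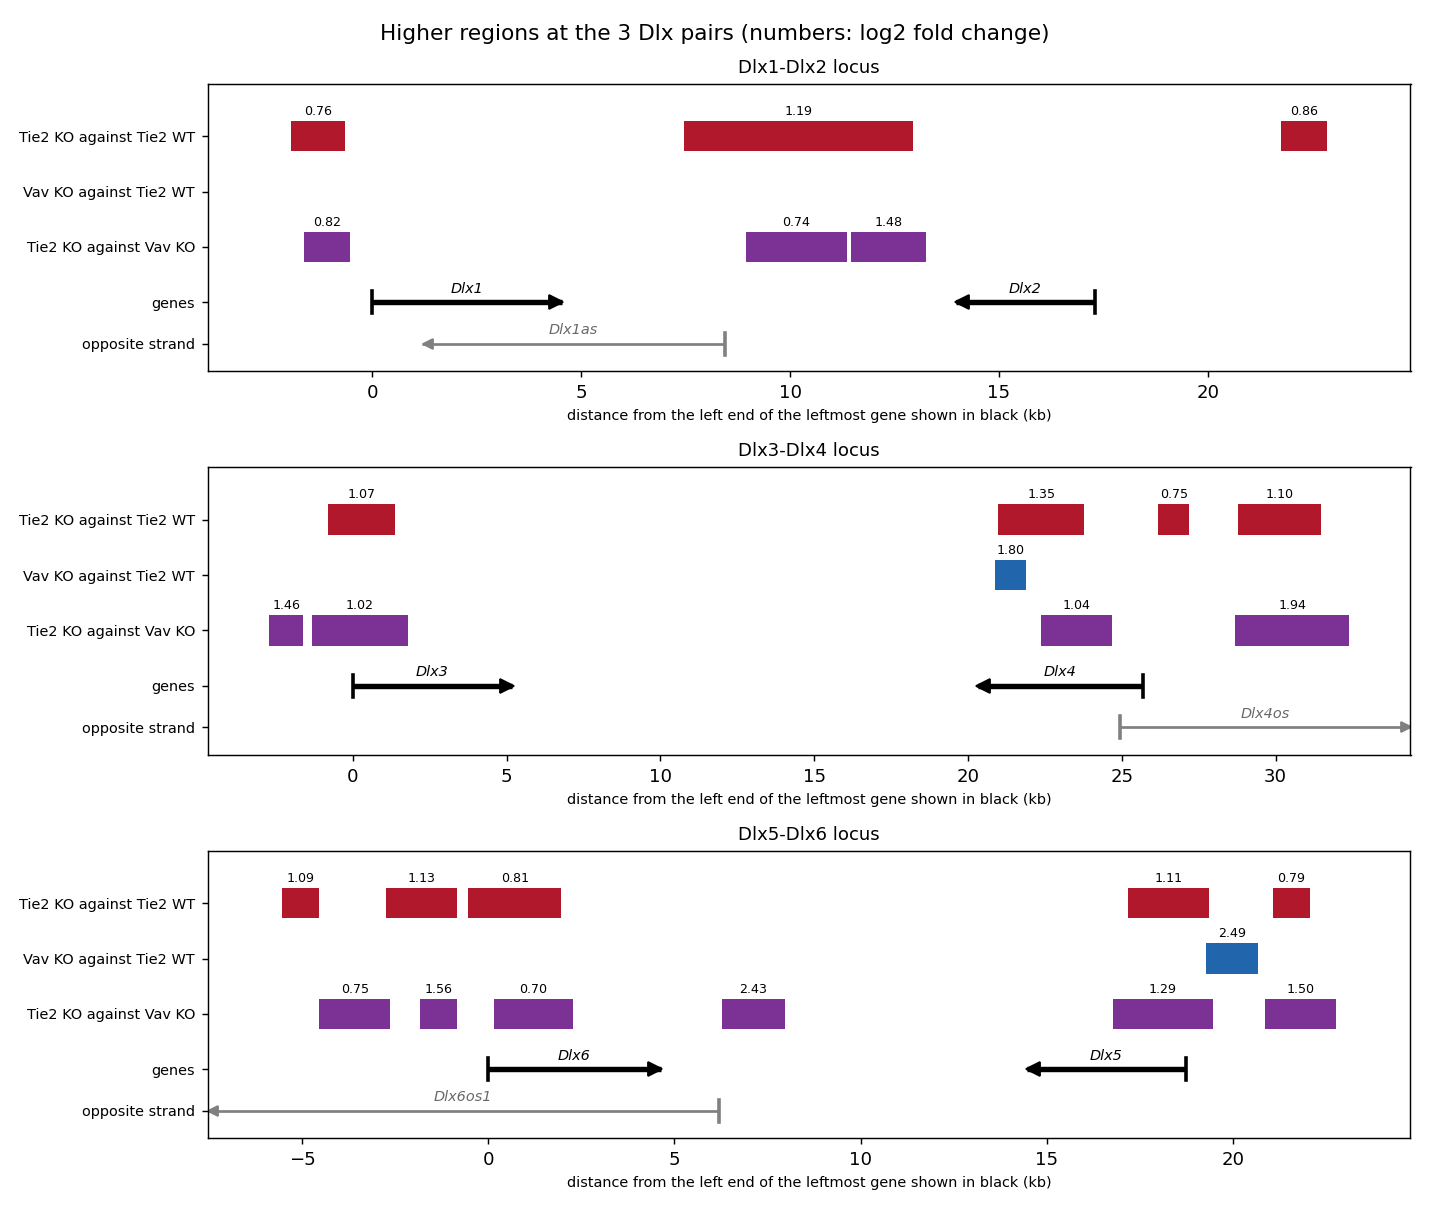
Maps of the 3 Dlx pairs, with distance in kb from the left end of the leftmost gene, listed higher regions as bars labelled with their log2 fold change and 1 row per comparison. Gene starts are vertical ticks, arrowheads give the direction of transcription, and Dlx4os and Dlx6os1 run past the edge. Regions of Tie2 KO against Tie2 WT lie at both outer ends of all 3 pairs, those of Tie2 KO against Vav KO lie there too except at Dlx2, which has none, while Vav KO against Tie2 WT has 1 bar at Dlx4, at 1.8, and 1 at Dlx5, at 2.49.

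Msx1 and Msx2 are targets and mediators of BMP signalling in skull, tooth and limb development, and both starts were covered. At Msx1, on chromosome 5, the region over the start ran from 37823702 to 37825600. Its log2 fold change of 0.72 was the smallest of the family in this comparison, with an adjusted p of 7.2e-08, the smallest of the 14, per the authors' deposited table. A region 4816 bp upstream, from 37829402 to 37830400, had the largest log2 fold change of the family in this comparison, 1.60, with an adjusted p of 0.000822 per the authors' deposited table. Another 3 regions, paired with the opposite-strand gene Msx1os, lay in the body and beyond the end of Msx1, at 1.11, 1.12 and 1.15 per the authors' deposited table. With them, 51.6% of the Msx1 gene and its 5 kb flanks was covered, or 18.4% with 20 kb flanks. With 5 kb flanks the share was 30.2% at Msx2. At the Dlx pairs it was 26.9% (Dlx1 and Dlx2), 22.1% (Dlx3 and Dlx4) and 28.1% (Dlx5 and Dlx6). These shares depend on annotation, since 5197 of the 8095 bp covered at Msx1 were paired with Msx1os. No opposite-strand gene was listed at Msx2, where such regions could not appear. The spans also differ, at 14.1 kb (Msx1) and 15.9 kb (Msx2) against 27.3 to 35.7 kb at the Dlx pairs.

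At Msx2, on chromosome 13, the region over the start ran from 53471602 to 53473900 with a log2 fold change of 1.16 and an adjusted p of 4.85e-06 per the authors' deposited table. A region 1821 bp upstream, from 53474602 to 53477100, had 1.42 with an adjusted p of 7.25e-08 per the authors' deposited table. Both Msx genes thus had the larger rise upstream of the start and the smaller one over it. Msx3, the third Msx gene, expressed in the dorsal neural tube, had a region of 3899 bp over its start at 0.88 with an adjusted p of 3.72e-07 per the authors' deposited table.

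The RefSeq promoters of Msx1 (chr5:37824536-37824835, - strand) and Msx2 (chr13:53472731-53473030, - strand) are shown because all 300 bases of each lay within a region higher in Tie2 KO than Tie2 WT. Capitals mark CCAAT (or ATTGG) and TAATTA as before.
Msx1: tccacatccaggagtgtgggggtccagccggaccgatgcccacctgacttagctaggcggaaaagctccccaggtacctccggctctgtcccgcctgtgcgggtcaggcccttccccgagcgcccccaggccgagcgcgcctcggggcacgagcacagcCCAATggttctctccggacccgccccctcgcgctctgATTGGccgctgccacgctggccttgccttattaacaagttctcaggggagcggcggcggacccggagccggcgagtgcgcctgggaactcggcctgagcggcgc
Msx2: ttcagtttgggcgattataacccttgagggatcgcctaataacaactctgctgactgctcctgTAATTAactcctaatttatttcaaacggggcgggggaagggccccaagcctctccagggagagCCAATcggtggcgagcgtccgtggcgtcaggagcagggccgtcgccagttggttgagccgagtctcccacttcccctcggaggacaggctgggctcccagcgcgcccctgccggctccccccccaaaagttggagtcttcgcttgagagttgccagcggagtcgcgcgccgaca
Msx1 holds 2 CCAAT boxes, 1 on each strand, and Msx2 holds 1 CCAAT box and 1 TAATTA. In Msx1 29 CpG and in Msx2 22 CpG were counted. The ratio of observed to expected CpG was 0.794 in Msx1 and 0.789 in Msx2, close to 0.767 in Dlx1 and 0.898 in Dlx2, against a median of 0.384 over all promoters.

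**Figure D3:**
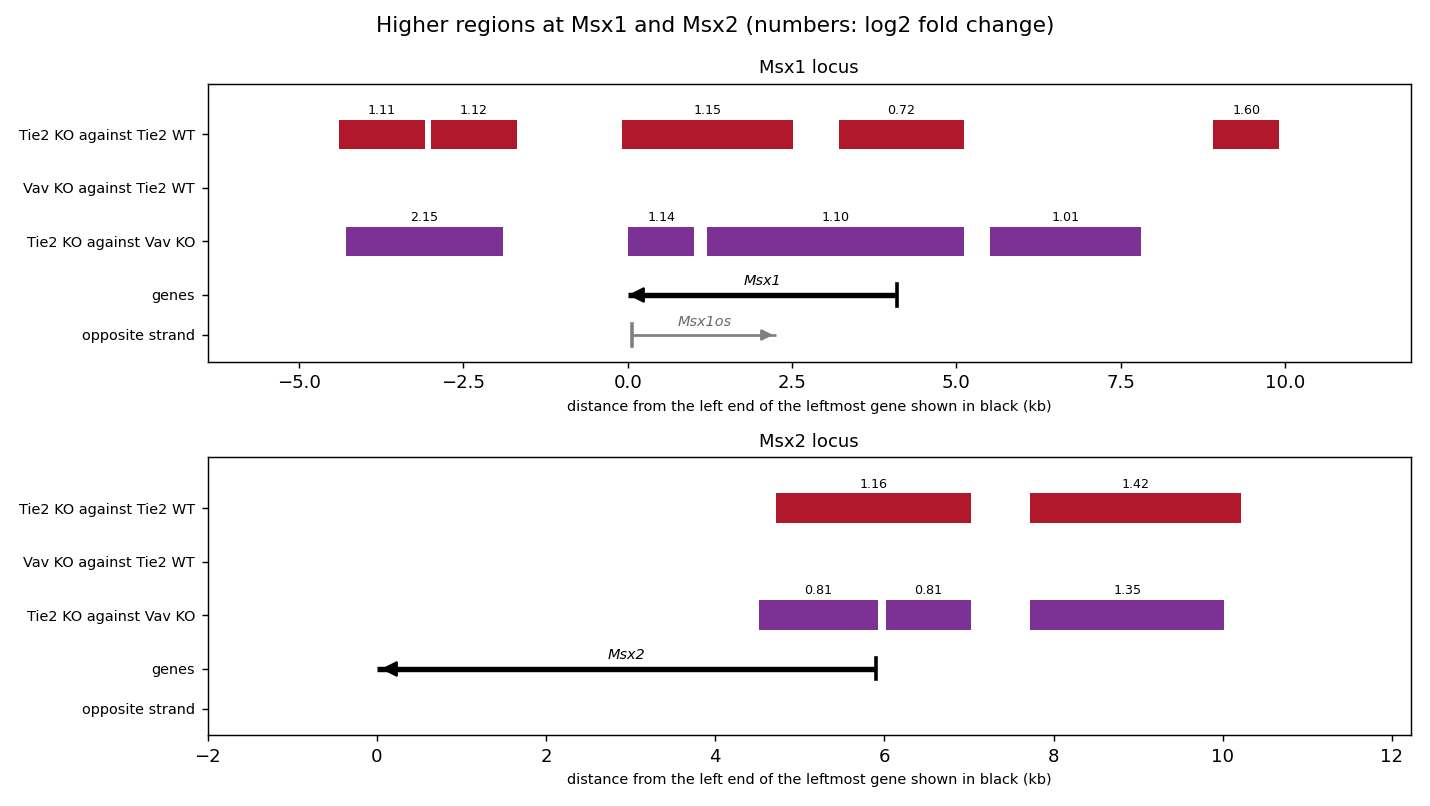
Maps of Msx1 and Msx2, drawn as for the Dlx pairs, with distance in kb from the left end of the gene and bars labelled with log2 fold changes. At Msx1 the bars reach from beyond the end of the gene to upstream of the start, at Msx2 they lie at and upstream of the start, and neither gene has a bar in Vav KO against Tie2 WT.

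Setting Vav KO against Tie2 WT addresses the blood driver, with the same control samples. Here 1 of 8 Dlx and Msx genes, Dlx5, had a higher region and 0 had a lower one, against 5.29% and 2.59% of protein-coding genes. At an adjusted p of 0.01 or lower, or at a log2 fold change of 1 or more, Dlx5 stays the 1 gene, against 5.16% and 3.79% of protein-coding genes. A region over the start was listed for 0 members and 2 or more regions for 0 members, against 0.886% and 0.174% of protein-coding genes. The Dlx5 region ran from 6882602 to 6884000 and ended toward Dlx5 at 533 bp upstream. Its log2 fold change was 2.49, or 5.62-fold, with an adjusted p of 7.31e-08 per the authors' deposited table. It ranked 40 by size among 1313 higher regions and was larger than 96.8% of them.

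The Dlx5 region of Vav KO lay mostly between those of Tie2 KO. It shared 99 bp with the region over the Dlx5 start of Tie2 KO against Tie2 WT and ended 401 bp before the upstream one. Against Vav KO, the Tie2 KO samples were higher on either side of it, over the start and from 6884202 on, and 199 bp of the stretch itself lay in the first of these regions. A second region of Vav KO lay in the body of Dlx4, from 95141002 to 95142000, and was paired with Dlx4os. It had a log2 fold change of 1.8 with an adjusted p of 0.000476 per the authors' deposited table. At the same place Tie2 KO against Tie2 WT had the region with 1.35 per the authors' deposited table. At Dlx1 and Dlx2, Msx1 and Msx2, 0 regions were listed for Vav KO against Tie2 WT within 20 kb.

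Tie2 KO was also set directly against Vav KO, to find where the knockouts differ, which uses the Tie2 KO samples of the first comparison again. Regions were higher in Tie2 KO at 7 of 8 Dlx and Msx genes and lower at 0, against 11.1% and 6.35% of protein-coding genes. The gene without a paired region was Dlx2. A region paired with Dlx1as, at 1.48 per the authors' deposited table, lay 4053 bp from the Dlx2 start, on the side of the gene end. The 13 regions had log2 fold changes from 0.75 to 1.94, with a median of 1.10 against 1.16 over all 2873 higher regions, and the largest adjusted p was 0.00175, all per the authors' deposited table. Of these genes 4 (Dlx3, Dlx5, Msx1 and Msx2) had a region over the gene start, against 5.42% of protein-coding genes. Counted by region, 4 of the 13 covered a start, against 43.8% of all higher regions. Likewise 5 (Dlx3, Dlx5, Dlx6, Msx1 and Msx2) had 2 or more regions, against 1.14%. At an adjusted p of 0.01 or lower the count stays 7, against 10.9%, and at a log2 fold change of 1 or more it is 6, against 7.23%.

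At Dlx1 the region from 71527802 to 71528900 had a log2 fold change of 0.82 with an adjusted p of 0.000443 per the authors' deposited table. In the interval between Dlx1 and Dlx2, regions paired with Dlx1as had 0.74 and 1.48 per the authors' deposited table, the larger one nearer to Dlx2. Dlx3 had 2 regions, 1.02 over its start and 1.46 at 1616 bp upstream, per the authors' deposited table. Dlx4 had the largest fold change of the members, 1.94 at 3000 bp upstream with an adjusted p of 3.89e-07 per the authors' deposited table. That region was 3699 bp wide, wider than 97.4% of the higher regions. The region in the body of Dlx4 had 1.04 per the authors' deposited table.

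At Dlx5 the region over the start had 1.29 and that at 2133 bp upstream had 1.5, with adjusted p-values of 1.43e-05 and 5.46e-07 per the authors' deposited table. Dlx6 had 2 regions, 1.56 at 833 bp and 0.75 at 2633 bp upstream, per the authors' deposited table. Its start itself was uncovered, the next region beginning 167 bp into the gene, where it was paired with Dlx6os2 at 0.70 per the authors' deposited table. The largest fold change at any Dlx or Msx locus in this comparison lay between Dlx6 and Dlx5, in a region from 6869602 to 6871300 paired with Dlx6os1. Dlx6os1, also called Evf2, is a noncoding RNA gene transcribed from the enhancers between Dlx5 and Dlx6, and acts on both genes in the mouse forebrain. The region began 68 bp upstream of the Dlx6os1 start used in the lists. In the RefSeq table Dlx6os1 begins at 6871627, which puts the region inside the gene. The region had a log2 fold change of 2.43, or 5.39-fold, with an adjusted p of 5.06e-06 per the authors' deposited table. This fold change was larger than that of 96.4% of the higher regions. In the comparisons with Tie2 WT no region was listed there.

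The Dlx6os1 promoters of RefSeq are printed because regions of Tie2 KO lay on them and because they differ in base composition from the promoters above. One start lies between Dlx6 and Dlx5 (chr6:6869484-6869783, - strand), where 182 of 300 bases lay in the region higher in Tie2 KO than in Vav KO. The other (chr6:6861634-6861933, - strand) lies upstream of Dlx6, with all 300 bases in regions higher in Tie2 KO than Tie2 WT and than Vav KO. Capitals mark TAATTA and CCAAT (or ATTGG) as before.
Dlx6os1 between Dlx6 and Dlx5: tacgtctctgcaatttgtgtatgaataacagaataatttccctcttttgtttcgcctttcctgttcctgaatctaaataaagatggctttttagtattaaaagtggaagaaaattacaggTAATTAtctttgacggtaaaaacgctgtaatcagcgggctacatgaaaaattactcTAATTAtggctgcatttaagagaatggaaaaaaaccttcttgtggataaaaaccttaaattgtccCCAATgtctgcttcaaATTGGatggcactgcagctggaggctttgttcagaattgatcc
Dlx6os1 upstream of Dlx6: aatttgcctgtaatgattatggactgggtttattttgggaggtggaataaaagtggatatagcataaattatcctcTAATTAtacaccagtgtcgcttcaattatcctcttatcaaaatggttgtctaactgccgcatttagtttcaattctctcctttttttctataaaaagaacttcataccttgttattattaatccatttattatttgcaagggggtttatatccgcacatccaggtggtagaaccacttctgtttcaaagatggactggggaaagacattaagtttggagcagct
TAATTA occurs 2 times in the sequence between the genes and 1 time in the one upstream of Dlx6, and CCAAT boxes number 2 and 0 in the same order. Their GC content was 35.7% and 35.3%, against 69.3% in Dlx1, 66.3% in Dlx2, 70.0% in Msx1, 61.0% in Msx2 and a median of 52.7% over all promoters. A match is a description of these letters and shows no binding.

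Msx1 had 2 regions higher in Tie2 KO than in Vav KO, 1.10 over the start with a width of 3899 bp and 1.01 at 1416 bp upstream, per the authors' deposited table. Beyond the end of the gene a region paired with Msx1os had 2.15 with an adjusted p of 1.21e-06 per the authors' deposited table. Msx2 had 3 regions, 0.81 over the start, 0.81 at 121 bp upstream and 1.35 at 1821 bp upstream, per the authors' deposited table. Here too the larger rise at Msx2 lay farther from the start, while of the 2 regions paired with Msx1 the one over the start had the larger rise. Within 20 kb, the Dlx pairs had 3, 4 and 6 regions higher in Tie2 KO than in Vav KO, covering 5.3, 10.2 and 11.3 kb, for Dlx1 and Dlx2, Dlx3 and Dlx4, and Dlx5 and Dlx6. In this comparison Dlx1 and Dlx2 thus had the least covered length, while the covered lengths were alike against Tie2 WT.

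Over all 5 loci, 19 regions were higher in Tie2 KO than Tie2 WT and 20 higher in Tie2 KO than in Vav KO, with 0 lower in either. Of these, 5 and 7 were paired with an opposite-strand gene and no member. Regions over the start of a member had log2 fold changes from 0.72 to 1.16 in Tie2 KO against Tie2 WT, and the other regions from 0.75 to 1.6, per the authors' deposited table. Against Vav KO the ranges were 0.81 to 1.29 over the start of a member and 0.70 to 2.43 elsewhere, per the authors' deposited table. The ranges overlap, and the largest values in both comparisons lay away from the starts of members. Regions over starts of opposite-strand genes were put with the other regions. The largest value against Vav KO lay 68 bp from the Dlx6os1 start used in the lists.

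**Figure D4:**
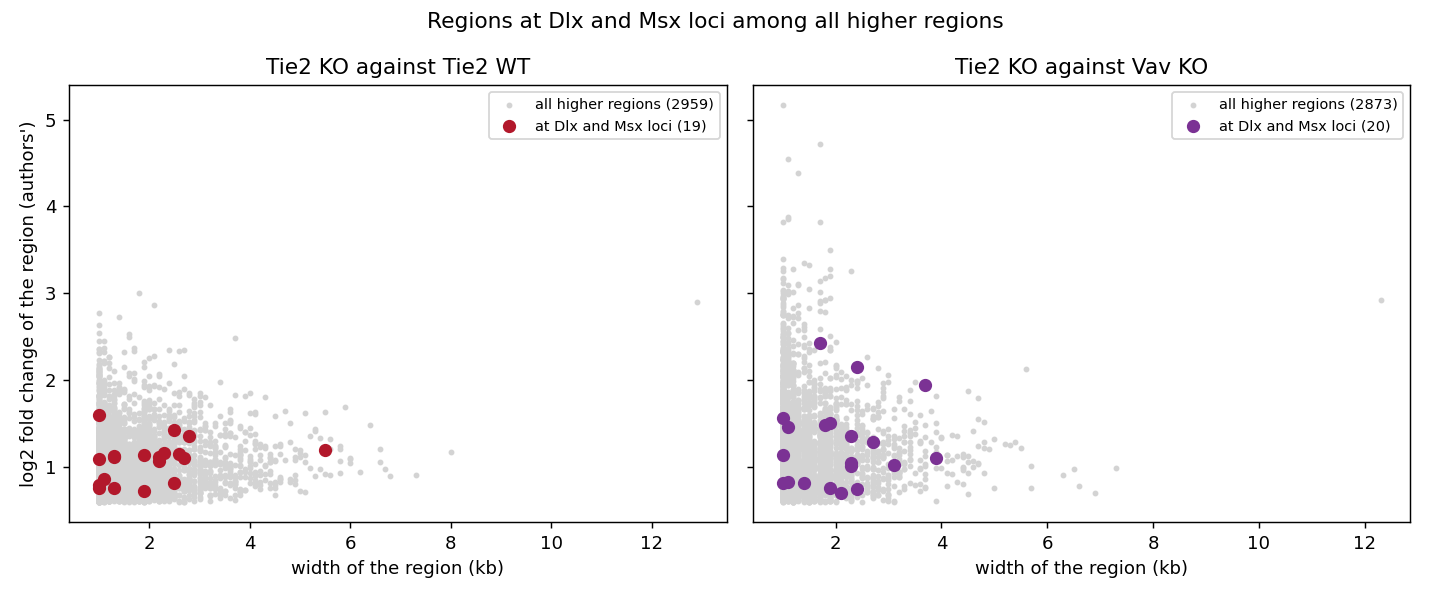
Width of each higher region in kb against its log2 fold change, with all higher regions in grey and those at Dlx and Msx loci in colour, for Tie2 KO against Tie2 WT (19 of 2959) and Tie2 KO against Vav KO (20 of 2873). The coloured points lie inside the grey cloud, with the region between Dlx1 and Dlx2, 5499 bp wide, farthest to the right.

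Other homeobox genes of the same class were counted in the same way. Of 39 other genes of the NK-like class, Msx3 among them, 30 (76.9%) had a region higher in Tie2 KO than Tie2 WT and 0 a lower one, against 11.5% and 2.51% of protein-coding genes, and 20 had one over the gene start. Their median log2 fold change over 39 regions was 1.08, against 1.02 over all higher regions, per the authors' deposited table. Among the larger values, per the authors' deposited table, were those of En1, of midbrain and limb, at 1.54, Barx1, of stomach and teeth, at 1.48 and Nkx3-2, of the axial skeleton, at 1.43. In Tie2 KO against Vav KO 32 of 39 (82.1%) had a higher and 0 a lower region, against 11.1% and 6.35% of protein-coding genes, led by Lbx2 at 2.75, Hmx1 at 2.62, En1 at 2.39 and Nkx2-6 at 1.91 per the authors' deposited table. In Vav KO against Tie2 WT 4 (10.3%) had a higher region and 1 (2.56%) a lower one, against 5.29% and 2.59% of protein-coding genes, so the lower count is at the background share. The higher ones were Nkx2-2 at 1.21, Bsx at 0.99, Hlx at 0.69 and Nkx6-2 at 0.64, and the lower one was Tlx2 at -0.92, per the authors' deposited table.

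Among 43 genes known to act with, upstream or downstream of Dlx and Msx genes, 25 (58.1%) had a region higher in Tie2 KO than Tie2 WT and 0 a lower one, against 11.5% and 2.51% of protein-coding genes. The largest log2 fold changes, per the authors' deposited table, were those of Gsx2, which acts upstream of Dlx2 in the mouse forebrain, at 2.25, Spp1, the bone matrix protein osteopontin, at 1.90, Gad2, a GABA-making enzyme, at 1.89 and Pax3, of neural crest and muscle, at 1.71. Bmp2 and Bmp7, ligands that induce Msx genes, were among the 25, and Bmp4 was not. In Tie2 KO against Vav KO 24 (55.8%) had a higher region and 1 (2.33%), Ldb1, a lower one, at -1.36 per the authors' deposited table, against 11.1% and 6.35% of protein-coding genes. Among the larger values besides Dlx6os1 were those of Gsx2 at 2.14 and Tfap2a, of neural crest, at 1.57, per the authors' deposited table. In Vav KO against Tie2 WT 2 (4.65%) had a higher region, Pax9 at 1.32 and Ccnd1 at 0.62 per the authors' deposited table, and 0 a lower one. These shares are near or under those of protein-coding genes, 5.29% and 2.59%. The lists overlap, since Barx1 is also in the NK-like list and Hand2 and Twist1 are also mesenchyme markers. Dlx6os1, counted among the pathway genes, is noncoding and lies at the Dlx5 and Dlx6 locus.

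Markers of other cell types were counted in the same comparisons. Of 14 markers of mesenchyme and neural crest, tissues that use Dlx and Msx genes, 10 (71.4%) had a region higher in Tie2 KO than Tie2 WT and 0 a lower one, against 11.5% and 2.51% of protein-coding genes, with log2 fold changes up to 2.15 at Twist2 per the authors' deposited table. Col1a1, Col3a1, Acta2 and Sox10 had no line in that comparison. Of 13 markers of erythro-myeloid progenitors, 0 had a higher and 0 a lower region, which a list this short does not set apart from 11.5% and 2.51%. Endothelial markers numbered 5 higher (55.6%) and 1 lower (11.1%) of 9, and endoderm and epithelial markers 4 higher (36.4%) and 0 lower of 11. Shares above that of protein-coding genes were thus not particular to mesenchyme and neural crest. In Tie2 KO against Vav KO, 6 of 14 (42.9%) mesenchyme and neural crest markers were higher and 0 lower, against 11.1% and 6.35% of protein-coding genes. Endothelial markers numbered 5 higher (55.6%, above the mesenchyme and neural crest share) and 0 lower there, and endoderm and epithelial markers 4 (36.4%) and 0. Progenitor markers there numbered 1 higher (Gata2) and 2 lower (Cd34 and Csf1r), too few to set apart from 11.1% and 6.35%. In Vav KO against Tie2 WT the counts were 2 higher and 2 lower of the mesenchyme and neural crest markers, 0 and 0 of the endothelial, 0 and 1 of the endoderm and epithelial, and 1 and 1 of the progenitor markers. Over all protein-coding genes the shares there were 5.29% higher and 2.59% lower, and counts of 0 to 2 in lists of 9 to 14 genes are too small to be read against them. The part of other cells in the values of the Dlx and Msx genes was not tested.

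**Figure D5:**
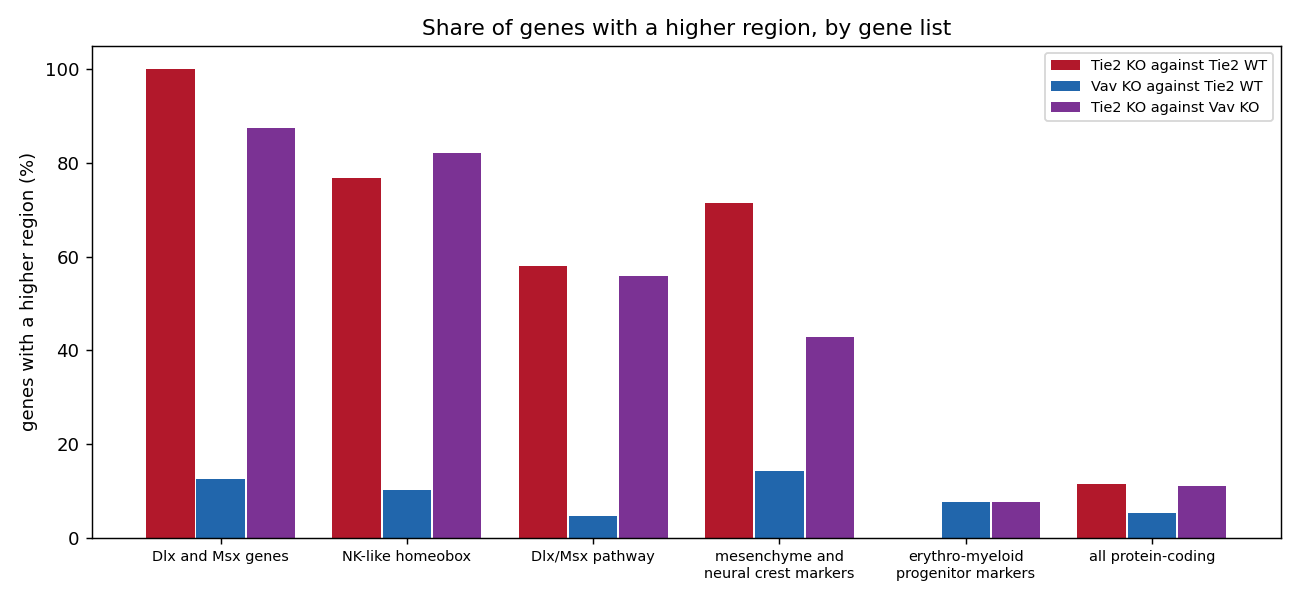
Percent of genes with a higher region in each of 3 comparisons, for the 8 Dlx and Msx genes, 39 other NK-like homeobox genes, 43 pathway genes, 14 mesenchyme and neural crest markers, 13 progenitor markers and all 21900 protein-coding genes. In Tie2 KO against Tie2 WT the NK-like genes reach 76.9%, the pathway genes 58.1% and the mesenchyme and neural crest markers 71.4%, against 11.5% of all genes. Progenitor markers are at 0 there, which a list of 13 genes does not set apart from 11.5%. Endothelial markers, at 55.6% there, and endoderm and epithelial markers, at 36.4%, are not drawn. The lists overlap at Barx1, Hand2 and Twist1.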

How the data were processed

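ATAC-seq was done on 14 samples in 4 groups, of which the lists name 3. Per the submitters' processing notes the build was mm10, and tools listed without roles are HOMER 4.10, MACS2 2.1.2, Picard, SAMtools 1.3.1, Bowtie2 and FastQC. How the Tn5 cut, duplicates and scaling were handled, and by which test regions were called, was not given in the sources used here. In all, 6 deposited lists hold, per the file headers, a log2 fold change, an adjusted p-value and other measures (width and distance in bp) for each region, made by the authors. Abbreviated list names were taken to mean Tie2 KO, Vav KO and Tie2 WT. The smallest absolute log2 fold change was 0.58, the largest adjusted p-value 0.0479 and the smallest width 999 bp.

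The members and gene lists were chosen with earlier results of these data known. Lines were matched by symbol, and every member matched its gene identifier in the RefSeq table (GRCm38.p6, the assembly of mm10). Backgrounds are shares of its 21900 protein-coding genes. RefSeq promoters matched 4 of the 8 members. Lists were described by counts and medians, with no test. A locus is the genes with 20 kb on either side. The named genes are the 8 members, Ezh2, Tek, Vav1, Msx3, opposite-strand genes, neighbours within 200 kb and the 4 largest changes of each gene list per comparison and direction, some of which are not reported here. Bmp2, Bmp4, Bmp7 and markers are named as examples chosen after their values were seen. Alternatives were stricter thresholds, gene starts only, own pairing and other locus sizes. Identity between the encoded homeodomains was planned and is not analysed here. Counting was tested on simulated lists. Python 3.11.15, pandas 2.3.3 and matplotlib 3.10.9 were used.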

Additional observations from a re-analysis of the deposited data

Results flagged for a closer look

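At the places below, the rise of Tie2 KO over Tie2 WT was also tested directly against Vav KO by the authors, on regions that share at least 50% of the shorter one, and the knockouts differed. Unless another comparison is named, values are log2 fold changes of Tie2 KO against Vav KO per the authors' deposited table. The Dlx1 region upstream of the start had 0.82 (adjusted p = 0.000443 per the authors' deposited table). For Dlx3 the region over the start had 1.02, and for Dlx4 the far upstream region had 1.94, with adjusted p-values of 5.37e-06 and 3.89e-07 per the authors' deposited table. Dlx5 had 1.29 over the start and 1.5 upstream, with adjusted p-values of 1.43e-05 and 5.46e-07 per the authors' deposited table. The Dlx6 upstream region had 1.56 (adjusted p = 0.000187 per the authors' deposited table). Msx1 had 1.1 over the start (adjusted p = 0.00175 per the authors' deposited table). Msx2 had 0.81 over the start, 0.81 next to it and 1.35 farther upstream, with adjusted p-values of 0.000159, 0.000525 and 0.000128 per the authors' deposited table. Tie2 KO samples serve in both comparisons, so these values are no independent repeat of the rise against Tie2 WT. Other member regions higher in Tie2 KO than Tie2 WT overlapped no region listed against Vav KO. They lay upstream of Dlx2 (0.86 against Tie2 WT), Dlx4 (0.75), Dlx6 (1.09) and Msx1 (1.60), per the authors' deposited table. The region over the Dlx6 start, at 0.81 against Tie2 WT per the authors' deposited table, overlapped a region paired with Dlx6os2.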

How the results depend on the processing

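Of 69 recounts of the members and loci under alternatives, 60 stayed within 1.5 times the reported count and 9 did not. A filter on a count of 0, such as that of lower regions, could only return 0. The 60 therefore overstate what was put to the test. With regions over the gene start only, members with a higher region numbered 5, 0 and 4, with 5, 0 and 4 regions, in Tie2 KO against Tie2 WT, Vav KO against Tie2 WT and Tie2 KO against Vav KO. With an absolute log2 fold change of 1 or more, 8 regions were left at members in Tie2 KO against Tie2 WT. Pairing regions with members within 5 kb on either side of the start gave 2 genes and 2 regions in Vav KO against Tie2 WT, since the region in the body of Dlx4 was added. In Tie2 KO against Vav KO this pairing gave all 8 genes, Dlx2 included, against 7. An adjusted p of 0.01 or lower and loci of 5 or 50 kb moved no count by more than 1.5 times. The largest adjusted p of a member region was 0.00989 per the authors' deposited table, so the first of these could move no member. With the RefSeq gene starts, an alternative chosen after seeing the data, 6, 0 and 5 members had a covered start, against 5, 0 and 4, since the Dlx1 region covers the RefSeq start. In the gene lists 27 of 36 recounts stayed within 1.5 times, and those that began at 0 could not move. Overlap between comparisons was not recounted, because they share samples. No paired analysis was possible because the lists hold no value per sample, and for the same reason no sample could be left out. Depth is unknown, so how it limits the calls cannot be given.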

Other observations

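Of 19 protein-coding neighbours within 200 kb of the Dlx and Msx loci, 2 had a region higher in Tie2 KO than Tie2 WT and 0 a lower one, against 11.5% and 2.51% of all protein-coding genes. Counts this small do not set the neighbours apart from other genes. Those were Stk32b, 103.3 kb from Msx1, at a log2 fold change of 1.34, and Ror2, a Wnt5a receptor 180.8 kb from Msx2, at 1.40, both over the gene start, per the authors' deposited table. In Tie2 KO against Vav KO, Stk32b at 1.35 and Ror2 at 1.25 were higher again, and so was Itga3, an integrin gene 43.3 kb from Dlx3, with 1.06 and 1.09 per the authors' deposited table. Metap1d, whose near end is 4.3 kb from the Dlx1 and Dlx2 pair, was the only neighbour with a lower region in that comparison, at -1.0 per the authors' deposited table. That region lay by the far end of Metap1d, from 71451802 to 71452800, whereas the pair begins at 71529445. Over all protein-coding genes 11.1% had a higher and 6.35% a lower region in Tie2 KO against Vav KO. In Vav KO against Tie2 WT 0 neighbours had a higher and 0 a lower region, against 5.29% and 2.59%. Col1a1, a bone collagen gene 167.1 kb from Dlx3, had no line in any list.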
